A study of Mus musculus with 9 samples.

Results

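The constitutive distal intergenic sites were 19987 regions of accessible chromatin outside protein-coding genes and over 1 kb from annotated gene starts that were called in every group of mouse embryonic fibroblasts (MEFs) of this ATAC-seq experiment. They were selected on the peak calls themselves, so their levels and the ratios between lists are given as descriptions, with no test. Peaks of 4 lists, 1 for each group, were merged into 125387 regions on chromosomes 1 to 19, of which 57522 held a peak from every list. A constitutive region was kept when it did not overlap the 1 kb on either side of any transcription start site (TSS) and when its midpoint was outside every protein-coding gene (GENCODE M21, mm10). The other constitutive regions comprised 19904 distal regions inside protein-coding genes, 13806 at protein-coding promoters and 3825 at starts of non-coding transcripts alone. ATAC-seq, which marks open DNA by where the Tn5 transposase can insert, had been carried out on 3 libraries of wild type (WT) MEFs, on 3 libraries of Anp32e null MEFs, on 1 library of Anp32e null MEFs given a pool of non-targeting (NT) siRNAs, and on 2 libraries of Anp32e null MEFs given a pool of 4 siRNAs against H2A.Z. Both siRNA groups thus lacked ANP32E and had received Lipofectamine RNAiMax. All were primary MEFs at a passage below 8. The study states that 1 replicate of the H2A.Z knockdown ATAC-seq was left out as over-tagmented, without naming its siRNA. Each group had 1 peak list for all of its libraries, so no value below has a replicate error. Differences between lists are descriptions of these 4 lists, and batch, depth and genotype or siRNA cannot be told apart.

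Distal accessible sites in fibroblasts include enhancers, which are short DNA elements bound by transcription factors, and sites bound by CTCF, the zinc finger protein that anchors chromatin loops. AP-1, a dimer of FOS and JUN family proteins, binds many fibroblast enhancers, often beside TEAD factors, the DNA-binding partners of YAP. H2A.Z is a histone variant found around promoters and enhancers, and ANP32E is a chaperone that removes it from nucleosomes. The depletion of H2A.Z in cells without ANP32E was designed to ask whether accessibility in these cells depends on H2A.Z.

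The sequences at the summits of 6 sites, chosen as the strongest with an AP-1 or a CTCF sequence within 25 bp of the WT summit, show both sequences as they occur in these sites. Each is the plus strand of mm10 (GRCm38) from 50 bases before to 50 bases after the WT summit, with the match in capitals. The first 3 hold the AP-1 sequence TGACTCA or its reverse complement TGAGTCA, and the last 3 hold the CTCF sequence CCANNAGNNGGC or its reverse complement GCCNNCTNNTGG.
AP-1, chr13:9191355-9191455, nearest gene Dip2c: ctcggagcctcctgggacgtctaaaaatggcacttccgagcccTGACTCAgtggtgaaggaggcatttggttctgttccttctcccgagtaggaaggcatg
AP-1, chr12:104415792-104415892, nearest gene Serpina3n: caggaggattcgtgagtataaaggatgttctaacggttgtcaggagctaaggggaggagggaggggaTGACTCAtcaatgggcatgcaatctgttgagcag
AP-1, chr16:10754607-10754707, nearest gene Socs1: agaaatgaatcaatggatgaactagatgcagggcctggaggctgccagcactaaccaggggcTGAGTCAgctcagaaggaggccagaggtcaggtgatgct
CTCF, chr6:31075863-31075963, nearest gene Klf14: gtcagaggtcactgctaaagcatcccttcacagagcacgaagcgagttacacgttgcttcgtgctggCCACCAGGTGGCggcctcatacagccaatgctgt
CTCF, chr11:103312307-103312407, nearest gene Arhgap27: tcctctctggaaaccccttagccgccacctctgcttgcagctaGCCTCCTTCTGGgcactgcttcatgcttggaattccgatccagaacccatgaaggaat
CTCF, chr13:34696986-34697086, nearest gene Fam50b: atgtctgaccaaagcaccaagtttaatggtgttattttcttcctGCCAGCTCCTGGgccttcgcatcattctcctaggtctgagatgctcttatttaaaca

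Values at these 6 sites are given as the summit pileup, the number of sequenced fragments that covered the highest base of the peak in the pooled libraries of a group. The site upstream of Dip2c had 613 fragments in WT, 630 in Anp32e null, 799 with NT siRNA and 2288 with H2A.Z siRNA. The site downstream of Serpina3n, a serine protease inhibitor gene, had 458, 469, 655 and 2787 fragments in the same order. The site downstream of Socs1, an inhibitor of cytokine signalling, had 356, 432, 749 and 3184. In the same order, the sites with a CTCF sequence had 225, 247, 609 and 1980 fragments near Klf14, 266, 174, 455 and 1491 near Arhgap27, and 224, 226, 405 and 1264 near Fam50b. The log2 ratio of H2A.Z siRNA to NT siRNA, relative to the median over all constitutive sites, was -0.43 near Dip2c, 0.14 near both Serpina3n and Socs1, and -0.24, -0.23 and -0.30 at the sites with a CTCF sequence, so the AP-1 examples differed in direction. The CTCF matches near Arhgap27 and Fam50b were centred at -1.5 and -0.5 bp from the WT summit, where such matches were about as frequent as in the flanks (given further on), so these examples show the sequence and not binding. The H2A.Z siRNA list was the most deeply covered, with a background of 17.82 fragments per base against 8.85 in WT, 5.12 in Anp32e null and 3.88 in NT siRNA, so levels are compared below as multiples of each list's background.

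Distal intergenic sites had levels close to those of distal sites inside genes and below those of promoters in every list. Their median pileup was 56 fragments in WT, 50 in Anp32e null, 66 with NT siRNA and 269 with H2A.Z siRNA. Relative to background, the median site stood at 6.33 times in WT, 9.77 times in Anp32e null, 17.0 times with NT siRNA and 15.1 times with H2A.Z siRNA. Distal sites inside genes had medians of 6.33, 9.58, 17.3 and 14.98 times background, and protein-coding promoters had 15.5, 23.8, 58.5 and 48.6 times. The spread over the distal intergenic sites was wide, from 2.94 times background at the 5th percentile to 22.4 times at the 95th in WT. A typical site was covered over 623 bp in WT and 785 bp in H2A.Z siRNA, and 94.8% of the sites held exactly 1 peak from each list.

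**Figure D1:**
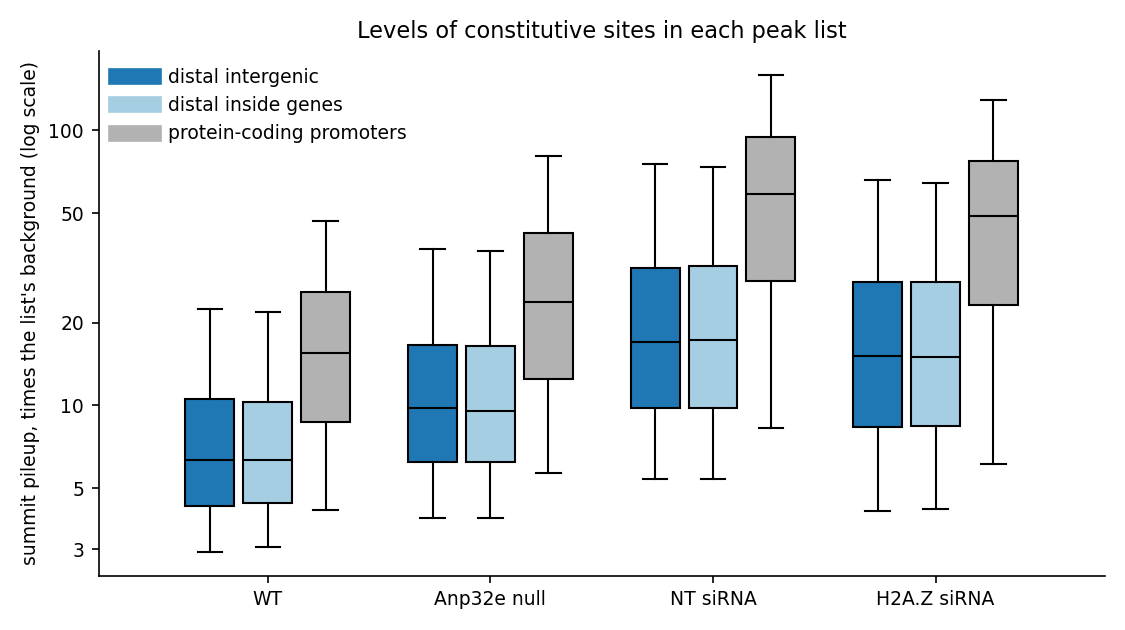
Summit pileup divided by the list's background (log scale) for distal intergenic sites, distal sites inside genes and protein-coding promoters that were called in every list. Boxes span the quartiles, lines are medians and whiskers run from the 5th to the 95th percentile of sites. Distal intergenic and genic sites overlap almost fully in each list, whereas promoters have medians of 15.5 times background in WT and 58.5 times in NT siRNA.

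The selection on 4 calls favoured strong sites. Of 47883 distal intergenic regions called in any list, 13220 were in 1 list, 8219 in 2, 6457 in 3 and 19987 in all 4. Regions just outside the rule, in 3 lists, had median pileups of 33 in WT, 25 in Anp32e null, 31 with NT siRNA and 108 with H2A.Z siRNA where called. The list most often lacking a call at such regions was WT, for 2952 of them, and the least often was H2A.Z siRNA, for 295. On the other threshold, 227 sites ended within 200 bp beyond the 1 kb limit around a TSS and had a median WT pileup of 62. The 209 constitutive regions within the last 200 bp inside that limit, and outside protein-coding genes, had a median of 53. The AP-1 sequence described above was at 28.2% and 27.8% of them.

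Sites were ranked here within each list by fold enrichment, which divides by the local background, and not by pileup. The 6 sites whose lowest rank over the lists was highest had fewer fragments than the Dip2c site in every list. Their summits were close together in the 4 lists. The first was at chr15:68342430-68343067, inside a long non-coding gene 83.9 kb upstream of Zfat, a zinc finger gene, with 258 fragments in WT, 271 in Anp32e null, 257 with NT siRNA and 815 with H2A.Z siRNA. The second, at chr4:70914527-70914995 and 380 kb upstream of Megf9, had 182, 180, 148 and 504 fragments. The third, at chr10:81996871-81997754 near Zfp873, had 180, 178, 187 and 642. The remaining ones lay near Nudt12 (281, 253, 155 and 1119 fragments), Mmp16 (281, 256, 178 and 958) and Trps1 (324, 317, 332 and 1582). Over these 6 sites, the summits of the 4 lists fell within 0 to 40 bp of each other. Only the sites near Nudt12 and Trps1 held an AP-1 sequence in their window of 201 bases around the WT summit. The site near Mmp16 was 91.0% repeat-masked sequence.

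Across all distal intergenic sites, the summits of the 4 lists spanned a median of 71 bp, with an interquartile range of 36 to 123 bp. In 34.3% of sites (6849 of 19987) all 4 summits fell within 50 bp (95% Wilson interval 33.6% to 34.9%). The median was 72 bp at distal sites inside genes and 89 bp at promoters, and it was narrower at distal intergenic sites than at promoters on 19 of 19 autosomes. Summits were closest together at the strongest sites. The median span was 106 bp in the lowest quartile of sites by mean level over the lists and 54 bp in the highest.

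The sequence at the summit, which the selection did not use, set distal intergenic sites apart from promoters. The AP-1 sequence was in the window of 201 bases around the WT summit of 6261 sites, or 31.3% (95% Wilson interval 30.7% to 31.97%). It was in 31.6% of distal sites inside genes, 5.22% of promoters and 3.14% of 239572 windows of the same length placed every 10 kb along the autosomes. Distal intergenic WT regions that were not called in every list held it in 20.98%, a lower share on 19 of 19 autosomes. The CTCF sequence was at 1304 sites, or 6.52% (6.19% to 6.88%), against 5.48% inside genes, 2.49% at promoters and 1.08% of genome windows. Intervals and shares count sites that can lie side by side, and a match to these letters is not evidence of binding.

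TEAD, RUNX and SP1 sequences were also more frequent than along the genome. The TEAD sequence CATTCC was at 24.3% of distal intergenic sites and in 10.8% of genome windows, and the sequence TGTGGTT of RUNX factors, regulators of mesenchymal and blood lineages, at 8.84% and in 4.77%. The sequence TTGCNNAA of C/EBP factors was at 10.4% of sites and in 9.37% of windows, so these shares were close. The sequence GGGCGG of SP1, which binds GC-rich promoter DNA, was at 4.97% of distal intergenic sites and in 2.00% of windows, and was far more frequent at promoters, at 45.1%. The NF-Y sequence CCAATCA was at 2.37% of sites, 6.37% of promoters and 2.50% of windows. The palindrome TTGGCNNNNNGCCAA of NFI factors occurred at only 8 sites, too few for a comparison. Median GC content was 47.3% at distal intergenic sites, 47.8% inside genes, 64.2% at promoters and 41.8% in genome windows, and base composition alone can change how often such letters occur. Every sequence was searched on both strands, and matches to different ones may overlap.

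TEAD sequences were less frequent at sites with an AP-1 sequence than at the others. They were at 22.2% of the sites with an AP-1 sequence (1392 of 6261, interval 21.2% to 23.3%) and at 25.2% of those without one (3457 of 13726, 24.5% to 25.9%). RUNX sequences were at 8.61% and 8.94%, with overlapping intervals (7.94% to 9.33% and 8.47% to 9.43%). The AP-1 share increased with strength, from 21.6% in the lowest quartile of sites by mean level to 42.0% in the highest. The CTCF share ran from 7.36% in the lowest quartile over 9.15% and 6.85% to 2.74% in the highest. Sites with 2 AP-1 sequences (743) had median pileups of 82 in WT, 75 in Anp32e null, 94 with NT siRNA and 453 with H2A.Z siRNA. Sites with none (13726) had 53, 46, 62 and 239.

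AP-1 and CTCF sequences were densest beside the summit and not under it, in all 4 lists. In WT, AP-1 matches had a density of 2.78 per base per 1000 sites at 20 to 40 bp from the summit and of 1.46 within 20 bp, against 0.185 at 400 to 490 bp. For CTCF the gap under the summit was deeper. Its density in WT was 0.832 at 20 to 40 bp, 0.0901 within 20 bp and 0.0681 at 400 to 490 bp, so that under the summit it was close to that of the flanks. In H2A.Z siRNA these CTCF densities were 1.26, 0.0550 and 0.0725. The densest 10 bp were at 30 to 40 bp from the summit for CTCF and at 20 to 30 bp for AP-1 in each of the 4 lists. For TEAD the dip was slight, with 1.57 matches per base per 1000 sites within 20 bp and 1.63 at 20 to 40 bp in WT. Constitutive distal sites inside genes gave a like pattern, with WT densities of the CTCF sequence of 0.649 at 20 to 40 bp and 0.0703 within 20 bp.

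**Figure D2:**
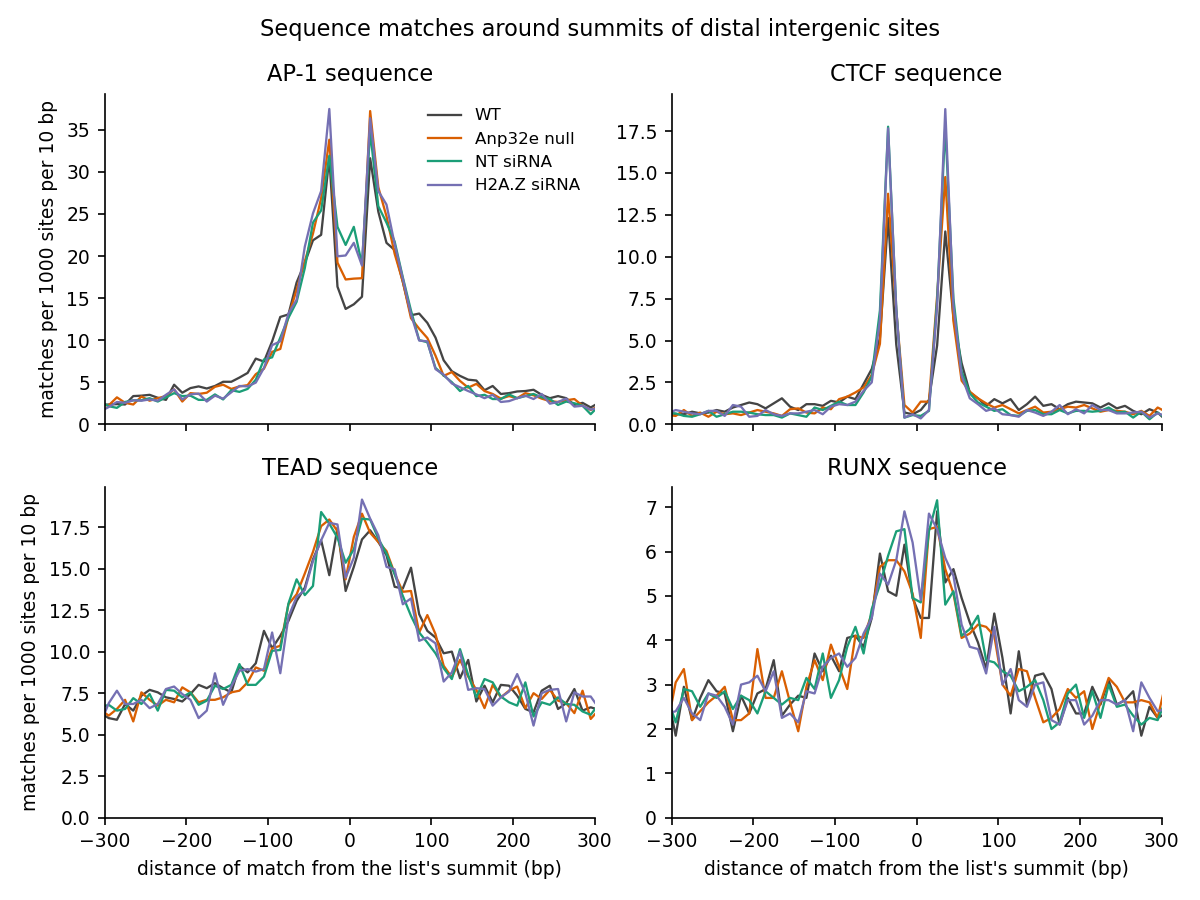
Matches to the AP-1, CTCF, TEAD and RUNX sequences on either strand per 1000 distal intergenic sites, in bins of 10 bp, against the distance of the match's centre from the summit of each list (coloured lines). AP-1 and CTCF matches form paired maxima on either side of the summit, at 20 to 30 bp and 30 to 40 bp, whereas TEAD and RUNX matches form broad humps with a slight dip.

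Between Anp32e null and WT, the distal intergenic sites as a whole had a median ratio close to that of other constitutive sites. Before centring, the median log2 ratio of null to WT levels was 0.62 over all 57522 constitutive sites and 0.62 over the distal intergenic sites, a shift that depends on the background by which each list was scaled. Ratios below are therefore given after subtracting the median over all constitutive sites. The centred median was -0.00 at distal intergenic sites, -0.02 at distal sites inside genes and 0.02 at promoters. A centred difference of 1.5-fold or more was found upwards at 1752 distal intergenic sites (8.77%) and downwards at 2254 (11.3%). Among all constitutive sites, 7.04% were that much higher and 9.74% that much lower. For single sites the precision was limited, with a median 95% counting interval of plus or minus 0.59 on the log2 scale. That interval did not hold 0 at 1507 of the higher and 1609 of the lower sites, out of 19987 distal intergenic sites. Among all 57522 constitutive sites it did not hold 0 at 3521 of the higher and 4057 of the lower ones.

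The null to WT ratio differed between chromosomes, and in the same way for all site classes. The centred medians of these sites ranged from -0.24 on chromosome 14, -0.23 on chromosome 9 and -0.19 on chromosome 11 to 0.19 on chromosome 17 and 0.17 on chromosomes 10, 15 and 16. Promoters on the same chromosomes had -0.19, -0.16, -0.17, 0.21, 0.21, 0.21 and 0.24. On each of the 19 autosomes the distal intergenic sites were below the promoters by pileup, with a median difference of -0.04, but by fold enrichment they were above them on all 19, with 0.11. Relative to all constitutive sites the median also moved, from -0.00 to 0.04 by fold enrichment and 0.03 when centred by level, so this direction depends on the measure. Over the 19 autosomes, the medians of distal intergenic sites and promoters had a Pearson r of 0.98, given as a description of classes that share both lists and their libraries. For H2A.Z siRNA against NT siRNA, the medians of distal intergenic sites spanned -0.02 to 0.06 over autosomes. For NT siRNA against null, both of the null genotype, they spanned -0.22 on chromosome 3 to 0.21 on chromosome 11, and those of promoters 0.01 on chromosome 13 to 0.83 on chromosome 11.

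**Figure D3:**
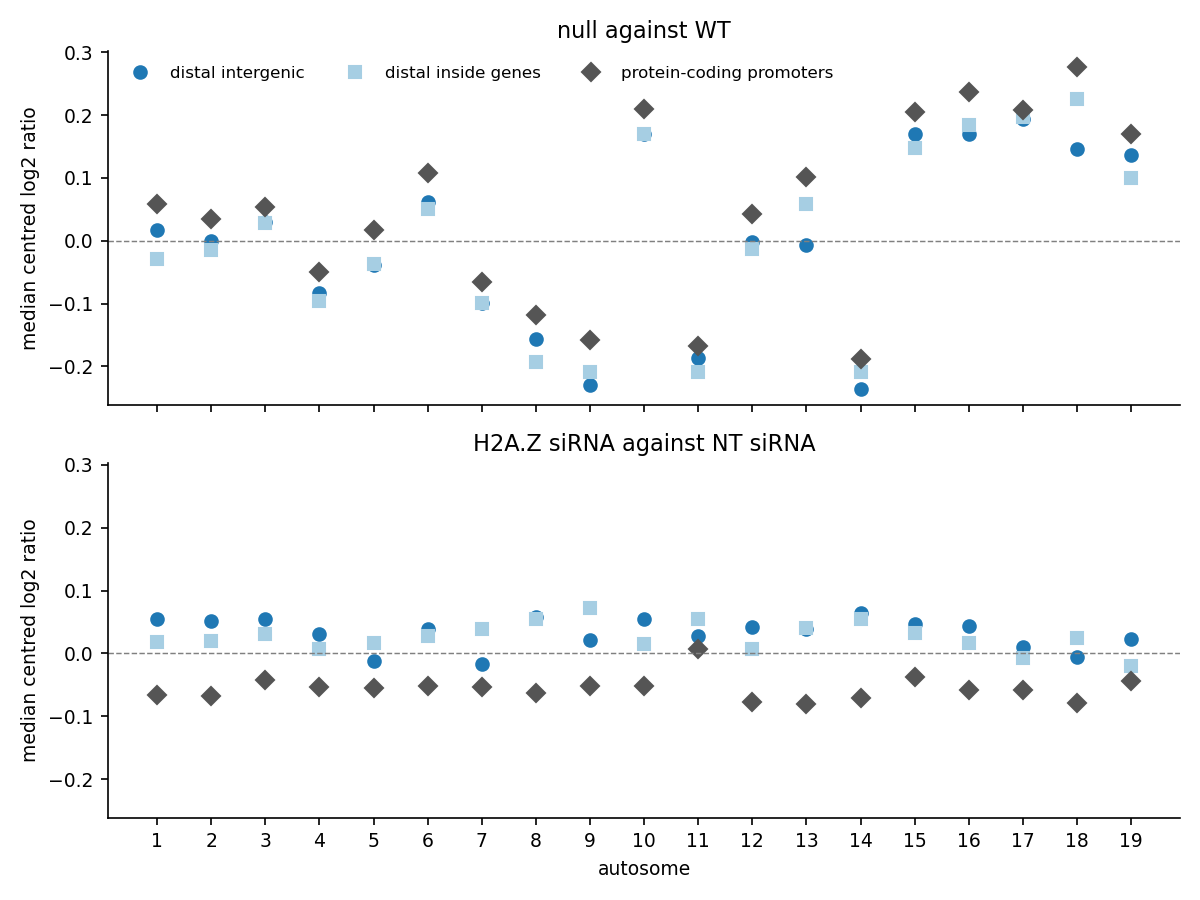
Median centred log2 ratio of summit levels on each autosome for distal intergenic sites (circles), distal sites inside genes (squares) and protein-coding promoters (diamonds). Null against WT (top) spans -0.24 to 0.19 for distal intergenic sites and the 3 classes move together, and H2A.Z siRNA against NT siRNA (bottom) spans -0.02 to 0.06.

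At the sites with the most different null and WT levels, the siRNA groups stood on the same side of WT as the null group. A pair of sites 178 and 199.8 kb upstream of Cadps, a regulator of vesicle release, had the highest ratios. The site at chr14:13022346-13023455 had 38 fragments in WT, 235 in Anp32e null, 198 with NT siRNA and 767 with H2A.Z siRNA, a centred log2 ratio of null to WT of 2.80 (95% counting interval 2.30 to 3.33). The site at chr14:13000771-13001844 had 25, 145, 114 and 526 fragments (2.71, 2.09 to 3.38). Between them and beside them, regions at chr14:13012074-13013122 and chr14:13040048-13040944 were called in the 3 groups without ANP32E and not in WT, with 60 and 25 fragments in Anp32e null. The third site, 225 kb upstream of Tmem132c, had 31, 137, 168 and 344 fragments. All 3 stood higher in each group without ANP32E than in WT when divided by background. The stretch at the summit of the first Cadps site shows an AP-1 sequence 15 bp to the left of the summit, in capitals.
AP-1, chr14:13022847-13022947, nearest gene Cadps: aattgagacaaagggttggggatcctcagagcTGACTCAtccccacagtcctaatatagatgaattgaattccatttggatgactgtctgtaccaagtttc

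The lowest ratios showed the opposite order. The site at chr10:112123226-112124269, 36.6 kb downstream of Glipr1l3, had 375 fragments in WT, 54 in Anp32e null, 24 with NT siRNA and 122 with H2A.Z siRNA, a centred log2 ratio of -2.63 (-3.07 to -2.21). The site upstream of Gm12830 had 130, 20, 15 and 59 fragments, and the site inside a long non-coding gene 437 kb upstream of Smim15 had 157, 26, 19 and 77. WT was the highest of the 4 lists at all 3 when divided by background. WT and null MEFs came from different embryos, so genotype at Anp32e and other differences between the embryos cannot be told apart.

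Between H2A.Z siRNA and NT siRNA, sites with an AP-1 sequence were higher and sites with a CTCF sequence lower than constitutive sites at large, a contrast that was absent between H2A.Z siRNA and untransfected null MEFs. In that further pair of lists, added after the data were seen and leaving NT siRNA out, the centred medians were 0.01 at both AP-1 and CTCF sites, and AP-1 sites were higher on 10 of 19 autosomes. By fold enrichment they were 0.05 and 0.29, and AP-1 sites were lower on 19 of 19. The difference between AP-1 and CTCF sites given next was thus not seen against the null list, and it was measured against a list of 1 NT siRNA library. The centred median over all distal intergenic sites was 0.03, against 0.03 at distal sites inside genes and -0.05 at promoters, and it was above the promoters' on 19 of 19 autosomes by pileup and by fold enrichment. When ratios were centred within bins of GC content, the median over the distal intergenic sites was -0.00 relative to all constitutive sites, a difference smaller than without this step. A 1.5-fold or larger difference was found upwards at 2108 distal intergenic sites (10.5%) and downwards at 1542 (7.72%), against 8.05% and 7.03% of all constitutive sites. The 6178 sites with an AP-1 and no CTCF sequence had a centred median of 0.17 and autosomal medians from 0.12 to 0.22. The 1221 sites with a CTCF and no AP-1 sequence had a centred median of -0.17 and autosomal medians from -0.28 to -0.09. The autosomal medians of both groups did not overlap, and the 12505 sites with neither sequence lay between them at -0.01. These groups are defined by sequence alone. The lists rest on 1 and 2 libraries, the H2A.Z siRNA list was 4.59 times as deep as the NT siRNA list by background, and the part of depth in this difference was not tested. How far the siRNAs depleted H2A.Z was not measured in these files.

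The levels of these groups differed in every list. Sites with an AP-1 sequence alone had median pileups of 67 in WT, 61 in Anp32e null, 78 with NT siRNA and 350 with H2A.Z siRNA, and sites with a CTCF sequence alone had 46, 38, 64 and 219. The share of sites at least 1.5-fold higher with H2A.Z siRNA than with NT siRNA was 15.2% of AP-1 sites (941 of 6178) and 1.15% of CTCF sites (14 of 1221). The share at least 1.5-fold lower was 2.77% (171) and 8.68% (106). The order was the same in each quartile of site strength, with medians of 0.12, 0.24, 0.22 and 0.12 at AP-1 sites from the weakest to the strongest quartile and of -0.18, -0.16, -0.18 and -0.18 at CTCF sites. It followed the number of AP-1 sequences, with medians of -0.03 at sites with none, 0.16 with 1 and 0.23 with 2. At distal sites inside genes, the median was 0.14 with an AP-1 sequence and -0.04 without, and -0.13 with a CTCF sequence and 0.04 without. With the authors' fold enrichment, which divides by the local background, in place of the pileup, the difference between AP-1 and CTCF sites was 0.19 in place of 0.34 and remained above 0 on 19 of 19 autosomes. Of the other sequences, SP1 came with lower ratios, with a median of -0.04 at the 994 sites that held it against 0.04 at the others and a difference below 0 on 19 of 19 autosomes. The C/EBP sequence came with 0.00 against 0.04, and its difference was above 0 on 4 of 19. Sites with a TEAD sequence had a median of 0.04 against 0.03 without and those with a RUNX sequence 0.05 against 0.03, and both differences were above 0 on 13 of 19 autosomes. For NF-Y the values were 0.07 and 0.03, on 12 of 19.

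The other ratios gave AP-1 and CTCF sites in other orders or by other amounts. In null against WT, the median was 0.06 at AP-1 sites and -0.08 at CTCF sites, and AP-1 sites were higher on 19 of 19 autosomes by pileup, but by fold enrichment this order reversed, with 0.04 at AP-1 and 0.10 at CTCF sites, and AP-1 sites were higher on only 3 of 19 autosomes. In NT siRNA against null, 2 groups of the same genotype of which 1 was transfected, the median was -0.14 at AP-1 sites and 0.17 at CTCF sites, and by fold enrichment -0.03 and 0.39. AP-1 sites were lower on 19 of 19 autosomes by both measures. Of all distal intergenic sites, 19.1% were 1.5-fold or more higher and 25.5% lower in NT siRNA than in null, against 23.1% and 21.8% of all constitutive sites. The direction depended on the measure, since the median relative to all constitutive sites was -0.10 by pileup, 0.02 by fold enrichment and -0.01 when centred within bins of GC content. This comparison shares the NT siRNA list with the H2A.Z siRNA comparison and the null list with the WT comparison, so that these ratios are not independent of each other.

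**Figure D4:**
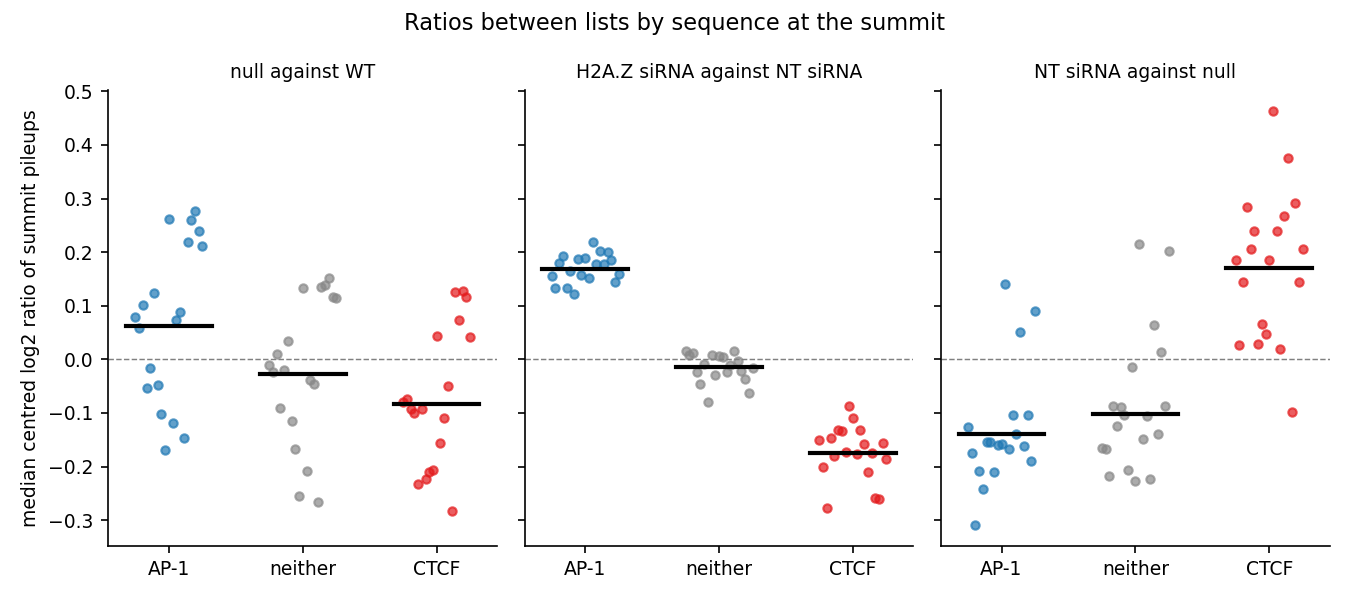
Median centred log2 ratio of summit levels of distal intergenic sites with an AP-1 sequence alone, with neither sequence and with a CTCF sequence alone, for 3 pairs of lists. Points are the 19 autosomes and bars the median over all sites of a group. In H2A.Z siRNA against NT siRNA the points of AP-1 sites (0.12 to 0.22) lie above those of CTCF sites (-0.28 to -0.09) without overlap, whereas in the other pairs the groups overlap.

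Single sites showed larger contrasts between H2A.Z siRNA and NT siRNA. The highest ratio was at chr14:74380612-74381356, inside a long non-coding gene 260 kb upstream of Htr2a, a serotonin receptor gene, with 94 fragments in WT, 39 in Anp32e null, 15 with NT siRNA and 253 with H2A.Z siRNA. Its centred log2 ratio was 2.13 (95% counting interval 1.38 to 2.99), and relative to background it stood at 10.6 times in WT, 7.62 in Anp32e null, 3.87 with NT siRNA and 14.2 with H2A.Z siRNA, so that NT siRNA was the lowest of the 4. The site 6.37 kb upstream of Serpina3i had 68, 53, 32 and 438 fragments (1.83, 1.31 to 2.39). The site 5.75 kb upstream of Gsn, which encodes the actin-severing protein gelsolin, had 37, 24, 22 and 286 fragments (1.75, 1.13 to 2.45). Both held an AP-1 sequence in their window of 201 bases, and that near Gsn lay 21 bp to the left of the summit, as shown here in capitals.
AP-1, chr2:35250769-35250869, nearest gene Gsn: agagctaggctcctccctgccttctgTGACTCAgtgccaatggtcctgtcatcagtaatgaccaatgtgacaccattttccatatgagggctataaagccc

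The lowest ratios of H2A.Z siRNA to NT siRNA were at sites that were highest in NT siRNA. The site at chr13:81009087-81009795, in a long non-coding gene 123 kb downstream of Arrdc3, had 29 fragments in WT, 31 in Anp32e null, 55 with NT siRNA and 48 with H2A.Z siRNA, a centred log2 ratio of -2.14 (-2.73 to -1.56). The site upstream of Fam110b had 27, 26, 58 and 57, and that upstream of Gpr39 had 58, 60, 108 and 107. Relative to background, these 3 sites stood at 14.2, 14.9 and 27.8 times in NT siRNA, at 2.69, 3.20 and 6.005 times in H2A.Z siRNA and at 3.28, 3.05 and 6.56 times in WT. None of the 3 held an AP-1 sequence.

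**Figure D5:**
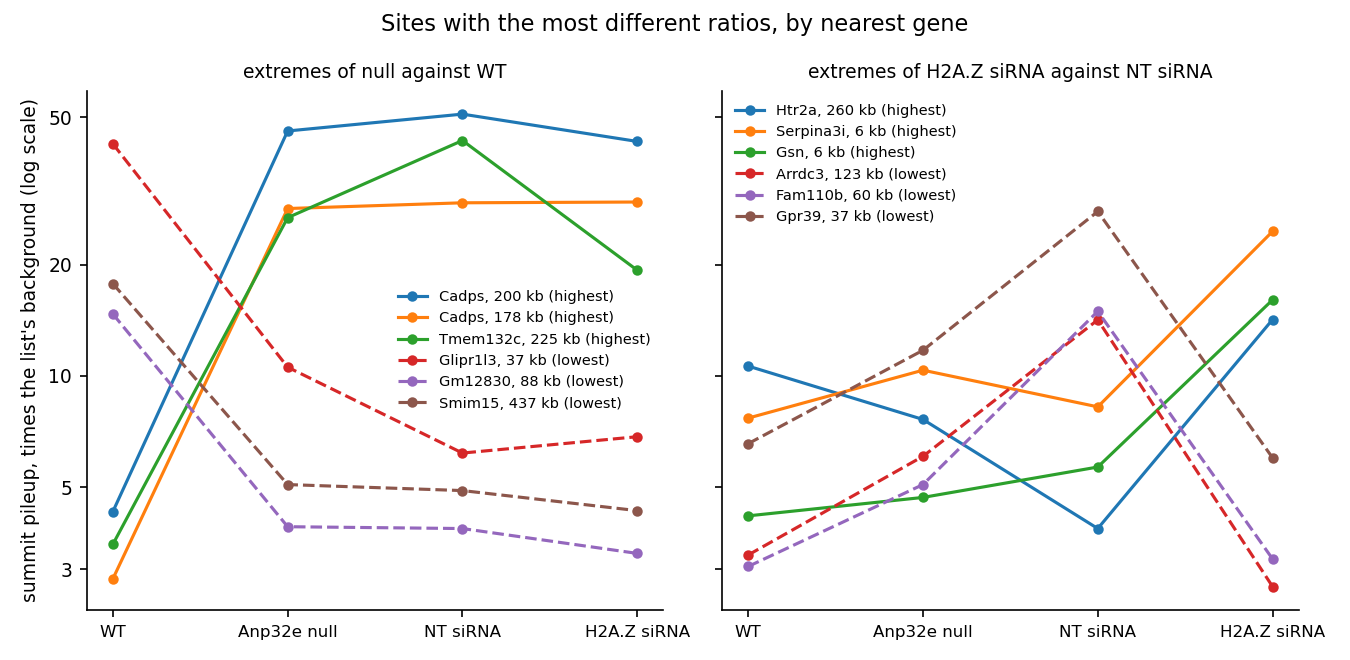
Summit pileup divided by the list's background (log scale) in each of the 4 lists for the sites with the highest (solid) and lowest (dashed) centred ratios of null against WT (left) and H2A.Z siRNA against NT siRNA (right), named by the nearest protein-coding gene and its distance. Lines join the values of 1 site. On the left the 3 groups without ANP32E lie on the same side of WT at each site. They differ among themselves, near Tmem132c from 19.3 times in H2A.Z siRNA to 43.3 in NT siRNA. On the right the dashed sites are highest in NT siRNA and the solid sites highest in H2A.Z siRNA.

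The ratios of null to WT and of H2A.Z siRNA to NT siRNA share no list. Over the 19987 sites their Spearman correlation was 0.12, a weak relation given as a description, with 0.08 to 0.18 over single autosomes. In the quartile of sites with the highest null to WT ratio (median 0.49), the median ratio of H2A.Z siRNA to NT siRNA was 0.10 and 39.9% of sites were below 0. In the quartile with the lowest (median -0.55), it was -0.05 and 54.1% were below 0. The upper quartile also held more AP-1 sequences, 37.5% against 27.1%. Both ratios were lowest at the weakest sites by mean level over the lists. From the weakest to the strongest quartile of level, null to WT medians were -0.21, -0.04, 0.04 and 0.13. Those of H2A.Z siRNA to NT siRNA were -0.06, 0.02, 0.08 and 0.07. The part of level in the correlation was not tested.

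The sites lay at widely varying distances from protein-coding gene starts and were spread over all autosomes. Their median distance from the nearest protein-coding TSS was 42.5 kb, with an interquartile range of 16.1 to 118 kb, a minimum of 1.22 kb and a maximum of 1709 kb, and 15.2% lay within 10 kb. The nearest TSS of any type was at a median of 14.8 kb. Of the sites, 62.3% lay upstream of the nearest protein-coding gene, and 2458 (12.3%) lay inside a long non-coding gene, so that intergenic holds for protein-coding genes only. Per Mb outside protein-coding genes there were 14.2 sites, with 9.50 on chromosome 14 at the lowest and 18.04 on chromosome 19 at the highest.

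Sequence and levels varied with this distance. The AP-1 share was 27.0% within 10 kb of a protein-coding TSS, 35.1% at 100 to 500 kb and 37.8% beyond 500 kb (221 of 584 sites, interval 34.0% to 41.8%). The CTCF share was 9.98% within 10 kb and 0.685% beyond 500 kb. GC content was 49.8% and 41.8% at these ends. In WT the median pileup was 56 fragments within 10 kb and 65 beyond 500 kb, whereas in NT siRNA it was 82 and 51.5. The NT siRNA to null ratio accordingly ran from 0.12 within 10 kb to -0.61 beyond 500 kb, and null against WT only from 0.00 to 0.10. The site farthest from any TSS, at chr2:134090887-134091522 and 463 kb from the nearest one, had 19, 27, 20 and 109 fragments. The next, at chr2:101083487-101084304, had an AP-1 sequence and 74, 96, 74 and 303 fragments.

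Some sites lay in chains. In all, 22.9% of the sites (4573 of 19987) belonged to 1287 chains of 3 or more sites with gaps of at most 10 kb. Single sites had a median WT pileup of 54 and those in chains of 5 to 7 a median of 66. AP-1 shares were alike, 31.3% at single sites and 30.9% in chains of 5 to 7, and CTCF shares were 7.41% and 3.82%. The longest chains held 11 sites each. One lay 12.9 to 64.3 kb from Cd44, the hyaluronan receptor, with WT pileups from 41 to 390, Anp32e null pileups from 30 to 432, NT siRNA pileups from 36 to 673 and H2A.Z siRNA pileups from 118 to 2403. The other lay near Amotl2, an angiomotin family gene that responds to YAP, with 31 to 188 fragments in WT, 31 to 180 in Anp32e null, 37 to 387 in NT siRNA and 128 to 1068 in H2A.Z siRNA, and 6 of its 11 sites held an AP-1 sequence. Chains of 9 or 10 sites lay near Map4k3, Rgs3, Pbp2, Lbh and Mcfd2.

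The chain near Col5a1, which encodes a chain of type V collagen and was singled out after its values were seen, differed between null MEFs with and without transfection. Its 9 sites had median pileups of 59 in WT, 60 in Anp32e null, 156 with NT siRNA and 862 with H2A.Z siRNA. The centred NT siRNA to null ratio was between 0.79 and 2.38 at every one of the 9, whereas that of H2A.Z siRNA to NT siRNA was between -0.31 and 0.74. Its pileups ran from 27 to 110 in WT and from 23 to 90 in Anp32e null, and from 124 to 430 in NT siRNA and from 447 to 1409 in H2A.Z siRNA, so the NT siRNA range lay above both untransfected ranges although its background was the lowest.

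By nearest gene, the sites were unevenly spread. Of 20757 protein-coding genes, 33.4% were the nearest gene of at least 1 site and 5.55% of 5 or more. Myc, the growth-promoting transcription factor, was nearest to the most, 46 sites over 1439 kb of territory, which is 3.20 sites per 100 kb against 1.42 over all genes. It was followed by the transcription factor Klf6 (36), Inhba, which encodes a subunit of activin A (34), the kinase gene Camk1g and the pseudokinase gene Trib2 (33 each) and the coactivator gene Cited2 (31). Marcks, which encodes an actin-binding substrate of protein kinase C, had 29, the LIM protein gene Lmo4 and the nuclear receptor gene Nr2f2 had 28 each, and the antiproliferative gene Btg1 had 27. AP-1 sequences, at 31.3% of all distal intergenic sites, were at 22 of the 46 Myc sites, 19 of the 36 Klf6 sites and 19 of the 33 Trib2 sites. They were at 12 of 34 for Inhba, 11 of 33 for Camk1g, 8 of 31 for Cited2, 7 of 29 for Marcks, 8 of 28 for Lmo4, 7 of 28 for Nr2f2 and 7 of 27 for Btg1.

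Sites around Myc were higher in Anp32e null than in WT for the most part. Their median pileup was 62.5 in WT, 81 in Anp32e null, 120 with NT siRNA and 504.5 with H2A.Z siRNA, and 37 of 46 had a centred null to WT ratio above 0, with a median of 0.55. On chromosome 15 as a whole, 65.5% of distal intergenic sites were above 0 and their median was 0.17. Sites around Inhba had medians of 59, 61.5, 75 and 367.5 fragments and a null to WT median of 0.23, with 25 of 34 above 0, against 49.1% of distal intergenic sites on chromosome 13. Of the other 8 genes, Marcks had 23 of 29 above 0 (median 0.30), Btg1 15 of 27 (0.17) and Cited2 17 of 31 (0.04). Their chromosome 10 had 65.6% above 0 and a median of 0.17. Lmo4 had 17 of 28 (0.10), against 52.1% on chromosome 3, and Nr2f2 14 of 28 (-0.00), against 38.9% on chromosome 7. Trib2 had 16 of 33 (-0.06), against 49.8% on chromosome 12, and Klf6 15 of 36 (-0.07), against 49.1% on chromosome 13. Camk1g had 12 of 33 (-0.12), against 51.9% on chromosome 1. These genes thus differed in direction, and some lay above and others below the share of their chromosome. In NT siRNA against null these genes differed as well, and the part of distance and GC content in these values was not tested. Sites around Nr2f2 had 84.5, 73.5, 61 and 268.5 fragments, and 25 of the 28 had an NT siRNA to null ratio below 0, with a median of -0.40. On chromosome 7, 44.7% of the sites were above 0 in this ratio and their median was -0.10. Those around Klf6 had 67, 54, 90.5 and 420, and 29 of the 36 had an NT siRNA to null ratio above 0, against 44.0% on chromosome 13. Of the other genes, Cited2 had 22 of 31 sites above 0 in this ratio (median 0.38), Btg1 7 of 27 (-0.27) and Marcks 5 of 29 (-0.55). On their chromosome 10 the share was 39.2%. Myc had 28 of 46 (0.20), against 54.1% on chromosome 15, and Trib2 19 of 33 (0.10), against 43.9% on chromosome 12. Inhba had 13 of 34 (-0.10), against 44.0% on chromosome 13. Lmo4 had 7 of 28 (-0.31), against 37.3% on chromosome 3, and Camk1g 5 of 33 (-0.42), against 42.6% on chromosome 1.

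Fibroblast matrix and surface genes had more sites per length of territory than the lists of other lineages, whereas mesenchymal transcription factors had fewer than the endothelial, haematopoietic and epithelial lists and about as many as the muscle list. Genes of these lists on chromosomes 18 and X were not counted. All 16 counted of the 18 fibroblast matrix and surface genes were the nearest gene of at least 1 site, and 11 of 5 or more, at 4.15 sites per 100 kb of the intergenic territory nearest to them, against 1.42 over all genes. Col5a1 had 14, Fn1 13, and Col1a2 and Dcn 10 each. Col5a2 had 9, Col1a1 7, Col3a1 and Col6a3 6 each, and Col6a2, Postn and Thy1 5 each. Of 15 counted among 16 mesenchymal transcription factors, 12 had a site, with 23 at Zeb2, 18 at Runx1, 15 at Osr1, 6 each at Twist2 and Snai1 and 5 at Meox2, and none at Prrx2, Snai2 or Runx2. Of 12 AP-1 and YAP response genes, Cyr61 and Ctgf were not matched by symbol and not counted, and 9 of the other 10 had a site, with 14 at Jun, 10 at Amotl2 and 7 each at Fos and Ankrd1, and none at Junb. This list had 6.12 sites per 100 kb and the mesenchymal factors 1.90. Among other lineages, 3 of 5 endothelial genes had sites, with 20 at Cdh5, 7 at Kdr and none at Pecam1 or Tek, and 3 of the 4 counted among 5 haematopoietic genes had sites, with 12 at Ptprc, 9 at Cd34 and none at Spi1. These lists had 2.92 and 2.91 sites per 100 kb. Of 5 epithelial genes 4 had a site and none 5 or more, with none at Cdh1 (3.10 per 100 kb), and of 4 muscle genes 2 had a site, with none at Myod1 or Myf5 (1.896 per 100 kb). Of 4 pluripotency genes, Sox2 had 5 sites, and Pou5f1 and Dppa4 none (0.501 per 100 kb). Pecam1 had 0 kb of intergenic territory, so no site could be counted at it. Counts of none also rest on little territory at Prrx2 (2 kb), Junb and Spi1 (6 kb each), Cdh1 (15 kb) and Pou5f1 (20 kb). Territory was larger at Runx2 (39 kb), Tek (44 kb), Myod1 (47 kb), Myf5 (66 kb), Snai2 (155 kb) and Dppa4 (894 kb).

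Around most collagen genes, chosen from this list after their values were seen, sites were higher with NT siRNA than in untransfected null MEFs, and so were sites around several genes that encode no collagen. All 7 sites nearest Col1a1 had a centred NT siRNA to null ratio above 0, with a median of 1.34 and median pileups of 83 in WT, 61 in Anp32e null, 203 with NT siRNA and 871 with H2A.Z siRNA. On chromosome 11, 58.3% of distal intergenic sites were above 0 in this ratio, with a median of 0.21. All 14 sites nearest Col5a1 were above 0, with a median of 1.32, against 42.0% of sites on chromosome 2. So were all 6 nearest Col3a1 (median 0.65) and all 6 nearest Col6a3 (0.60), against 42.6% on chromosome 1, and all 5 nearest Col6a2 (1.17) and all 3 nearest Col6a1 (1.49), against 39.2% on chromosome 10. Differences were small at Col1a2, with 9 of 10 sites above 0 and a median of 0.21, and at Col5a2, with 8 of 9 and 0.23. Among the other genes of this list, taken up after their values were seen, 11 of 13 sites were above 0 at Fn1 (0.43), 4 of 4 at Sparc (0.87) and 5 of 5 at Thy1 (0.58), against 3 of 10 at Dcn (-0.55) and 0 of 5 at Postn (-0.26), and Vim had 1 of 3 (-0.04), Lum 1 of 2 (-0.11) and Pdgfra 1 of 1 (0.19). Among mesenchymal transcription factors with 5 or more sites, 6 of 6 were above 0 at Snai1 (1.06) and at Twist2 (0.77), 16 of 18 at Runx1 (0.50) and 10 of 15 at Osr1 (0.19), against 5 of 23 at Zeb2 (-0.74) and 0 of 5 at Meox2 (-0.51). The shares of all distal intergenic sites above 0 were 46.9% on chromosome 9 (Thy1), 37.3% on chromosome 3 (Postn) and 42.2% on chromosome 5 (Pdgfra). They were 44.3% on chromosome 16 (Runx1), 43.9% on chromosome 12 (Osr1 and Meox2) and 44.4% on chromosome 6 (Col1a2). The remaining genes lie on chromosomes 1, 2, 10 and 11, whose shares are given above. Over all distal intergenic sites the median of this ratio was -0.10 by pileup, 0.02 by fold enrichment and -0.01 when centred within bins of GC content. By pileup it also fell with distance from the nearest protein-coding TSS, from 0.12 within 10 kb to -0.61 beyond 500 kb. The values by gene are by pileup and were set only against those of their chromosome. The part of distance and GC content in them was not tested. Nearness was counted to the closest protein-coding TSS only, so a site may act on another gene, and RNA was not analysed here.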

How the data were processed

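ATAC-seq libraries of 9 MEF samples were prepared by the study with the Illumina Nextera DNA Flex kit. Per the labels and the study's methods, reads were aligned by the authors with Bowtie2 (mm10, GRCm38), duplicates taken out with Picard and peaks called with MACS2 on paired-end fragments, with 1 list for each group. The deposited files used were the 4 narrowPeak lists. The columns were, per the file format, the fold enrichment ratio at the summit, the −log10 p and −log10 q, and the position of the summit. The WT and null lists held 84126 and 82640 peaks, and the siRNA lists 89272 and 108409. Peaks on the mitochondrial genome and on scaffolds remained in the lists without siRNA, and only chromosomes 1 to 19 were used.

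Summit pileups were recovered from the deposited fold ratio and −log10 p-value, which MACS2 computes from the pileup and local background with a pseudocount of 1. At least 99.995% of recovered values lay within 0.05 of a whole number, so they were read as unscaled fragments, although the study's methods name the MACS2 option SPMR, which scales signal to sequencing depth. Each list was scaled by its most frequent local background. Intervals of ratios are exact conditional binomial at 95% and those of shares Wilson at 95%, and both cover counting error only. The total depth per library is unknown. Peak lists of 9 libraries pooled into 4 groups allow no replicate test, and no p-values were computed.

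Sequences were read from GRCm38.p6 and motifs searched on both strands. Chains and nearest genes used GENCODE M21. Sites named in the text were chosen by rule (the 6 with the highest lowest-list rank, the 3 highest and 3 lowest per ratio, the 3 strongest with each sequence, the 2 farthest from any TSS, the 8 largest chains and the 10 genes with most sites), with chromosome 18 left out, and genes of marker lists with 5 or more sites or none, beside genes said to be chosen after their values were seen. The sites, lists and rules were chosen with earlier results of these data known. Scripts ran in Python 3.11.15 with NumPy 2.4.6, pandas 2.3.3 and SciPy 1.17.1, with samtools 1.23.1 and matplotlib 3.10.9, and were tested on simulated data. Alternatives covered the peak threshold, list length, merging, TSS exclusion, gene definition, repeats, scaling, GC content and motif window.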

Additional observations from a re-analysis of the deposited data

How the results depend on the processing

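Of 119 values in the unit of the result, 94 stayed within 1 SD over autosomes, for shares the Wilson interval and for the site count 1.5 times. A further 6 values, differences of fold percentiles, are in another unit and were compared by sign where the reported value was over 1 SD from 0. By fold percentiles the AP-1 against CTCF difference was 5.07 points for H2A.Z siRNA against NT siRNA and -13.7 for NT siRNA against null, and the distal intergenic sites differed from all constitutive sites by 0.66 points in null against WT, where the log2 value was -0.00, and by 0.78 in H2A.Z siRNA against NT siRNA. The difference between AP-1 and CTCF sites kept its sign in 40 of 42 values. The exceptions were null against WT by fold enrichment (-0.061) and by fold percentiles (-1.02 percentile points), and centring in bins of level gave 0.085 in place of 0.15. For H2A.Z siRNA against NT siRNA, fold enrichment gave 0.19 in place of 0.34. Relative to all constitutive sites, the distal intergenic sites had a null to WT median of 0.035 by fold enrichment and 0.033 centred by level, in place of -0.00. For H2A.Z siRNA against NT siRNA the value was 0.013 by fold enrichment and -0.00078 centred by GC, in place of 0.03. For NT siRNA against null it was 0.024 by fold enrichment, 0.61 percentile points by fold percentiles and -0.0059 centred by GC, in place of -0.10. The causes of these moves were not tested.

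With peaks of −log10 q of 5 or more, the summit span was 66 bp, the AP-1 share 33.1% and the share in chains 19.3%. With equally long lists, the AP-1 share was 32.3% and the share in chains 20.6%. A window of 50 bases on either side of the summit gave AP-1 and CTCF shares of 19.1% and 4.34%, and the NT siRNA summit 33.8% and 8.04%. A TSS exclusion of 5 kb gave a CTCF share of 6.04% and 21.2% in chains. The share in chains was 21.1% with exactly 1 peak per list, 21.9% outside genes of every type, 22.3% without repeats and 43.5% with a gap of 20 kb. The nearest TSS of any type lay at 14.8 kb. The site count was 16194 to 19989 under the 6 settings that change it. Centring within each autosome, added after the data were seen, moved none of the ratio results beyond the autosome spread. No paired analysis was possible because the libraries of each group share 1 list, and for the same reason no replicate could be left out. Depth limited single sites, for which the median null to WT interval spans 0.59 on either side.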
